A study of Mus musculus with 11 samples.

Results

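The matrix and matrix receptor genes of HL-1 cells were 85 of the 16593 genes named on the array, measured by 131 of its 25697 probes. They were chosen by symbol, by a rule that uses no measured value. There were 59 probes for 37 collagen chain genes, 9 probes for 8 laminin chain genes, 45 probes for 28 genes whose symbols begin with Itga or Itgb, and 18 probes for 12 other genes (elastin, perlecan, the nidogens, Sparc, the thrombospondins, periostin, tenascin C and the lysyl oxidases). Of the 28 integrin symbols, 24 name receptor subunits. The other 4 are Itgb1bp1 and Itgb1bp2, proteins that bind the tail of the beta 1 subunit, Itgb3bp, a nuclear protein also found at centromeres, and Itgbl1, a secreted protein. The rule also named Fn1 (fibronectin) and Fbn1 (fibrillin), for which the annotation used here named no probe, so that fibronectin, Lama3 and Lama5 had no value.

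HL-1 is an atrial cardiomyocyte line from adult mouse heart, kept in a medium with serum and norepinephrine on flasks coated with fibronectin and gelatin. The cells were then held for 23 h in serum-free medium with no growth factor (control, 4 arrays), with 10 ng/mL TGF-β2 (4 arrays) or with 100 ng/mL PDGF-BB (3 arrays), and were harvested with trypsin. Each array held RNA from 1 flask of the same line, so that p-values measure the spread between flasks of 1 line. The arrays lay on 2 chips, each of which held all 3 groups. Chip 1 held only 1 of the 3 PDGF-BB arrays (array 1), so chip 1 values of comparisons with PDGF-BB rest on that array. A further PDGF-BB cell sample and the exosome samples of the study were not analysed here.

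Collagens are trimers of alpha chains. The fibrillar types form the tensile fibres of the interstitium, whereas type IV collagen forms the meshwork of the basement membrane, the sheet that surrounds each heart muscle cell. Laminins, trimers of an alpha, a beta and a gamma chain, form the other meshwork of that sheet, and perlecan and the nidogens hold the networks together. Integrins are pairs of an alpha and a beta subunit that tie the cytoskeleton to collagen, laminin or fibronectin. TGF-β is a known inducer of matrix genes in fibroblasts, and PDGF-BB is a mitogen of mesenchymal cells.

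Values are log2 intensities after background correction and quantile normalisation. The array software gave each probe a detection p against its negative control probes, and a probe was called detected below 0.05. The lowest value of a detected probe lay between 5.61 and 5.89 on the 11 arrays, so values below about that level carried no signal above background. A probe passed the filter in a group when it was detected and had a signal above 30, as normalised by the authors, on every array of the group. Mean signal ranged from 451 to 846 and the number of detected probes from 11401 to 12455 per array, of which 36 to 44 were matrix or receptor probes. Over the tested members the bead standard error had a median of 10.3% of the signal, and no member value rested on fewer than 7 beads. Of the marker lists checked, 7 of 8 cardiomyocyte genes, 2 of 10 fibroblast genes (Ddr2 and Vim), 6 of 8 smooth muscle genes, 1 of 7 endothelial genes (Egfl7) and 0 of 4 leukocyte genes passed the filter in all 3 groups. Over the array, 6939 of the 16593 named genes did.

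Of the 15 matrix genes that passed the filter in every group, 11 encode chains or partners of the basement membrane (Col4a1 to Col4a6, Col18a1, Lamb2, Lamb3, Lamc1 and Hspg2). Of the 131 probes, 34 passed in control, 33 in TGF-β2-treated and 33 in PDGF-BB-treated cells, and 31 (23.7%) passed in all 3 groups, against 9941 of the 25697 probes of the array (38.7%). These 31 probes were the same ones that were detected on all 11 arrays, 34 others were detected on 1 to 10 arrays, and 66 on none. By gene, 26 passed through at least 1 probe in all 3 groups, 24 were detected on some arrays, and 35 on none. Of the 16593 named genes of the array, these numbers were 6939, 3514 and 6140. A probe that was not detected does not show that the transcript was absent. Talin 1 (Tln1) and the cardiac calcium channel Ryr2 were also detected on 0 arrays, and whether these flasks expressed them was not tested.

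**Figure D1:**
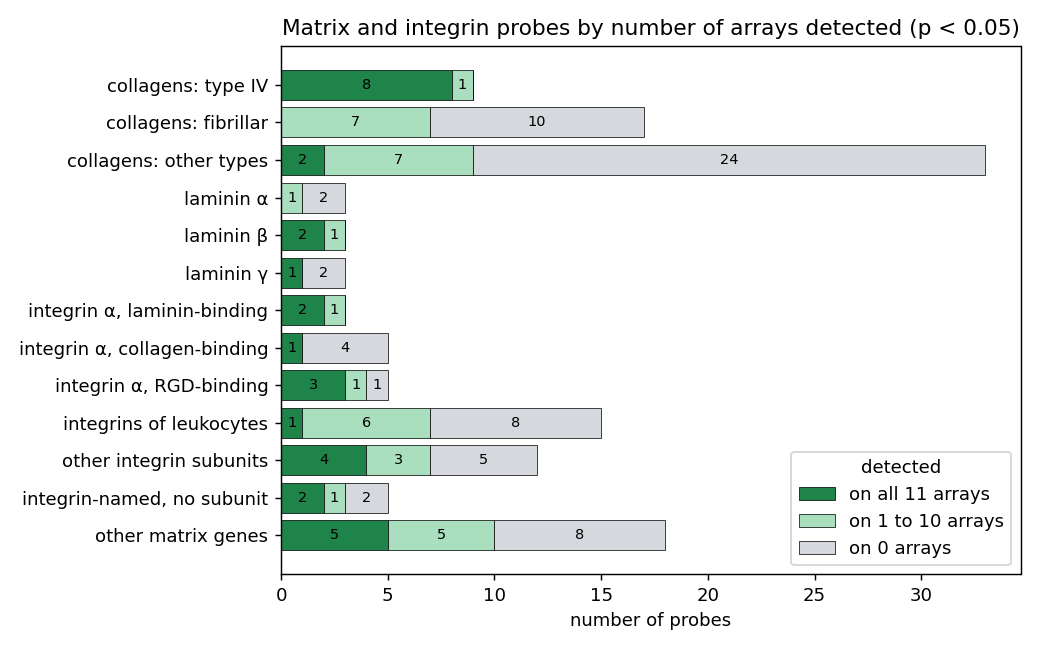
Number of array probes by class of gene, stacked by whether the probe was detected on all 11 arrays, on 1 to 10 arrays or on none. All type IV collagen probes but 1 were detected on all 11 arrays, whereas no fibrillar collagen probe was.

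Collagens divided by type. All 6 type IV genes passed in all 3 groups, and 8 of their 9 probes were detected on all 11 arrays. By contrast, none of the 17 probes for 11 fibrillar collagen genes passed in all 3 groups, 7 being detected on 1 to 10 arrays and 10 on none. Col1a1 and Col1a2, which encode type I collagen, the main collagen of scar, had lowest detection p-values of 0.0952 and 0.0764 on any array, and the 2 probes for Col3a1 were detected on 2 and 1 arrays. Among the 33 probes for other collagens only Col16a1, a collagen associated with fibrils, and Col18a1, a basement membrane collagen, passed in all 3 groups. Col18a1 passed by ILMN_2735184 but not by its other probes, ILMN_1225839 and ILMN_2937542.

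The type IV genes lie head to head in pairs on the mouse genome (GRCm38.p6, RefSeq). Col4a1 (chr8:11198423-11312889, minus strand) and Col4a2 (chr8:11312805-11449287, plus strand) overlap by 85 bases at their starts. Col4a4 (chr1:82448419-82587034, minus strand) and Col4a3 (chr1:82586921-82722059, plus strand) overlap by 114 bases. Col4a6 (chrX:141165403-141474095, minus strand) and Col4a5 (chrX:141475370-141689236, plus strand) are separated by 1274 bases. The bases just upstream of the last pair, of Hspg2, which encodes perlecan, and of Sparc are shown as examples. These 4 genes were among those detected on every array and were not picked by a screen of the others. The stretches shown lie outside other gene spans. Each is the part of the 250 bases before the start in the RefSeq promoter table that lies outside every annotated gene span, the span of the gene itself included (201 bases for Col4a5, 231 for Col4a6, 198 for Hspg2 and 250 for Sparc). They run 5′ to 3′ on the strand of the gene, and capitals mark a GC box (GGGCGG or CCGCCC) or a CCAAT box (CCAAT or ATTGG).
Col4a5 (chrX:141475169-141475369, plus strand): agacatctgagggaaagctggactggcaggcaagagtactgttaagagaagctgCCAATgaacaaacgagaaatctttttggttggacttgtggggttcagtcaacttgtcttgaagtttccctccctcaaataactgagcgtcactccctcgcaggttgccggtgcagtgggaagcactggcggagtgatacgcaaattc
Col4a6 (chrX:141474096-141474326, minus strand): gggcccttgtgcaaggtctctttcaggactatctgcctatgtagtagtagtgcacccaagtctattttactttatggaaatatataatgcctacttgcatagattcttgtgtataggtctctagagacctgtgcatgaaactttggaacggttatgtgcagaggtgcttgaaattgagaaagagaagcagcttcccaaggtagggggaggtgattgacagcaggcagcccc
Hspg2 (chr4:137468553-137468750, plus strand): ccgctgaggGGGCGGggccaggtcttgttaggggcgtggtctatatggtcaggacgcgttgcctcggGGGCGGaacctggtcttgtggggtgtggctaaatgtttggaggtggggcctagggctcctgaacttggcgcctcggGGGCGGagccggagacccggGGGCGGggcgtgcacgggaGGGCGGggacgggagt
Sparc (chr11:55420081-55420330, minus strand): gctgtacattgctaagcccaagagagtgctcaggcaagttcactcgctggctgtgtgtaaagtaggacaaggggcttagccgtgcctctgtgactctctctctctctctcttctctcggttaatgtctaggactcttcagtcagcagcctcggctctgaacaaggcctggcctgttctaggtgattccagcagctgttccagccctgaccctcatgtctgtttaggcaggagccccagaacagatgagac
The Hspg2 stretch held 5 GC boxes and no CCAAT box, that of Col4a5 held 1 CCAAT box, and those of Col4a6 and Sparc held neither. Of all 32851 promoters in the table, 32.7% held a GC box and 33.8% a CCAAT box in the 250 bases before the start, on either strand. Promoters were listed for 60 of the 85 genes (68 windows), of which 47.1% held a GC box and 27.9% a CCAAT box. The share with a GC box was 47.8% of the 23 windows of genes that passed in all 3 groups and 44% of the 25 windows of genes detected on no array.

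The laminin chains detected throughout were Lamb2, Lamb3 and Lamc1. None of the 3 alpha chains with a probe passed, although every laminin trimer contains one, and Lama3 and Lama5 had no named probe. Lama2, the alpha chain of muscle laminin, was detected on 1 array, and Lama1 and Lama4 on 0 arrays, with lowest detection p-values of 0.144 and 0.10. Lamb1 was detected on 2 arrays and Lamc3 on 0.

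Against 6939 of the 16593 named genes of the array, 9 of the 24 integrin subunit genes passed in all 3 groups. They were the laminin-binding subunits Itga3 and Itga7, the collagen-binding Itga1, the fibronectin-binding Itga5, Itga2b, the alpha subunit of the platelet integrin, Itgae, known from intraepithelial T cells, and the beta subunits Itgb1, Itgb4 and Itgb5. Itga2b and Itgb4 each passed by 1 of 2 probes, Itgae by 1 of 6 and Itga5 and Itgb1 by both of theirs. Itga6, the partner of Itgb4 in hemidesmosomes, was detected on 4 arrays, and Itgav, the partner of Itgb5, on 7. Itgb3 and Itga4 were detected on 0 arrays, with lowest detection p-values of 0.0539 and 0.0677.

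Of the other matrix genes, Sparc (both probes), Thbs2, Eln and Hspg2 passed in all 3 groups. Lox, the main lysyl oxidase, Loxl2, Nid1, Postn and Thbs1 were detected on 0 arrays, and the lowest detection p-values of Lox, Nid1, Postn and Thbs1 were 0.593, 0.325, 0.584 and 0.192. Nid2 passed in control and TGF-β2-treated cells but not in PDGF-BB-treated cells, Col6a2 in control and PDGF-BB-treated cells, 1 probe for Itgae in control cells alone, Itgb2 in PDGF-BB-treated cells alone and 1 probe for Itgb6 in TGF-β2-treated cells alone. These 5 probes were detected on 7 to 10 of the 11 arrays, so their different filter calls rested on 1 to 4 arrays and were not tested as differences in level.

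Genes that act on these proteins were examined in the same way, where 6939 of the 16593 named genes of the array passed in all 3 groups. Of 15 genes for collagen synthesis and secretion with a probe, 13 passed in all 3 groups, as did 12 of 20 genes of the list for integrin adhesions (Itgb1bp1 and Itgb3bp, which are also counted above, among them) and 7 of 11 matrix receptors other than integrins. The latter 7 were Bcam, Cd47, Dag1, which encodes dystroglycan, a laminin receptor, the collagen receptors Ddr1 and Ddr2, and the syndecans Sdc2 and Sdc4. No probe of these lists passed an adjusted p of 0.05 by limma in any comparison. At an unadjusted p below 0.05, none of the 18 tested probes of collagen synthesis, none of the 20 of integrin adhesions and 3 of the 13 of other receptors (2 higher and 1 lower) passed for TGF-β2 against control, where 1.09% of all tested probes were higher and 0.938% lower. For PDGF-BB against control, 1 probe of collagen synthesis was lower, and 1 of integrin adhesions and 1 of other receptors were higher (1.3% higher and 1.89% lower over all tested probes). For TGF-β2 against PDGF-BB, 2 of collagen synthesis and 2 of other receptors were higher and none was lower (3.69% and 1.44%).

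The question put to the treated groups was whether either factor changed the transcripts of the cells. No member passed the test. Of the 131 probes, 44 (36 genes) were detected on at least 3 arrays and were tested together with all 12894 such probes by limma, with p-values adjusted by Benjamini-Hochberg. None of the 44, and none of the 12894 (0%), had an adjusted p below 0.05 when TGF-β2 was compared with control, PDGF-BB with control, or TGF-β2 with PDGF-BB. The lowest adjusted p of a member was 0.9999, 0.9998 and 0.772. The first 2 comparisons share the control arrays. In bulk RNA such as this, a change in the number of cells of a kind and in RNA per cell cannot be told apart.

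With TGF-β2, 26 members lay above control and 18 below. The median log2 fold change was 0.05 (all tested probes -0.00), in a range from -0.39 to 0.51. At an unadjusted p below 0.05, 1 member was higher and 1 lower, where 1.09% and 0.938% of all tested probes were higher and lower. The lower one, Col11a1, met the minimum of 3 detected arrays through the control arrays alone, where it was high, so that its difference is a description and supports nothing. The count of 2 fell to 1 without control array 1 or 2, TGF-β2 array 1 or 3 or any of the 3 PDGF-BB arrays, and rose to 5 without control array 3. No member had groups that did not overlap (0.682% of all tested probes did in the higher and 0.698% in the lower direction). The 95% interval of the difference lay within 1 log2 unit of 0 for 43 of the 44 members. By class, the median was 0.05 for the 15 collagen probes, 0.07 for the 3 laminin probes, 0.01 for the 20 integrin probes and 0.12 for the 6 others.

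With PDGF-BB, 22 members lay above control and 22 below, with a median of 0.00 (all tested probes 0.01) and a range from -0.58 to 0.48. At an unadjusted p below 0.05, 1 was higher and 2 were lower (1.3% and 1.89% of all tested probes). Col11a1 was again 1 of the lower members, and none remained without PDGF-BB array 1. Again no member had groups that did not overlap (1.95% and 1.7%). The interval lay within 1 log2 unit of 0 for 40 of 44. The medians of collagens, laminins, integrins and others were -0.02, 0.05, 0.02 and 0.03. That of the 3 laminin probes was 0.08 with chip as a block, 0.36 on chip 1 (with PDGF-BB array 1 only) and -0.15 on chip 2.

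Between the treated groups, 25 members were higher with TGF-β2 and 19 with PDGF-BB, with a median of 0.03 (all tested probes -0.02) and a range from -0.40 to 0.66. At an unadjusted p below 0.05, 2 were higher and 1 lower with TGF-β2 (3.69% and 1.44% of all tested probes), and the count of 3 fell to 1 without PDGF-BB array 1 or 3. Of the 2, Col2a1 did not meet the minimum of 3 detected arrays without the TGF-β2 arrays, where it was high, so that its difference is likewise a description only. In 2 members, Sparc and Col2a1, the groups did not overlap, both being higher with TGF-β2 (3.41% of all tested probes, and 1.71% in the lower direction). The interval lay within 1 log2 unit of 0 for 39 of 44. Class medians were 0.15 for collagens, -0.06 for laminins, -0.02 for integrins and 0.06 for others. The laminin median was -0.08 with chip as a block, -0.30 on chip 1 (again with PDGF-BB array 1 only) and 0.05 on chip 2.

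**Figure D2:**
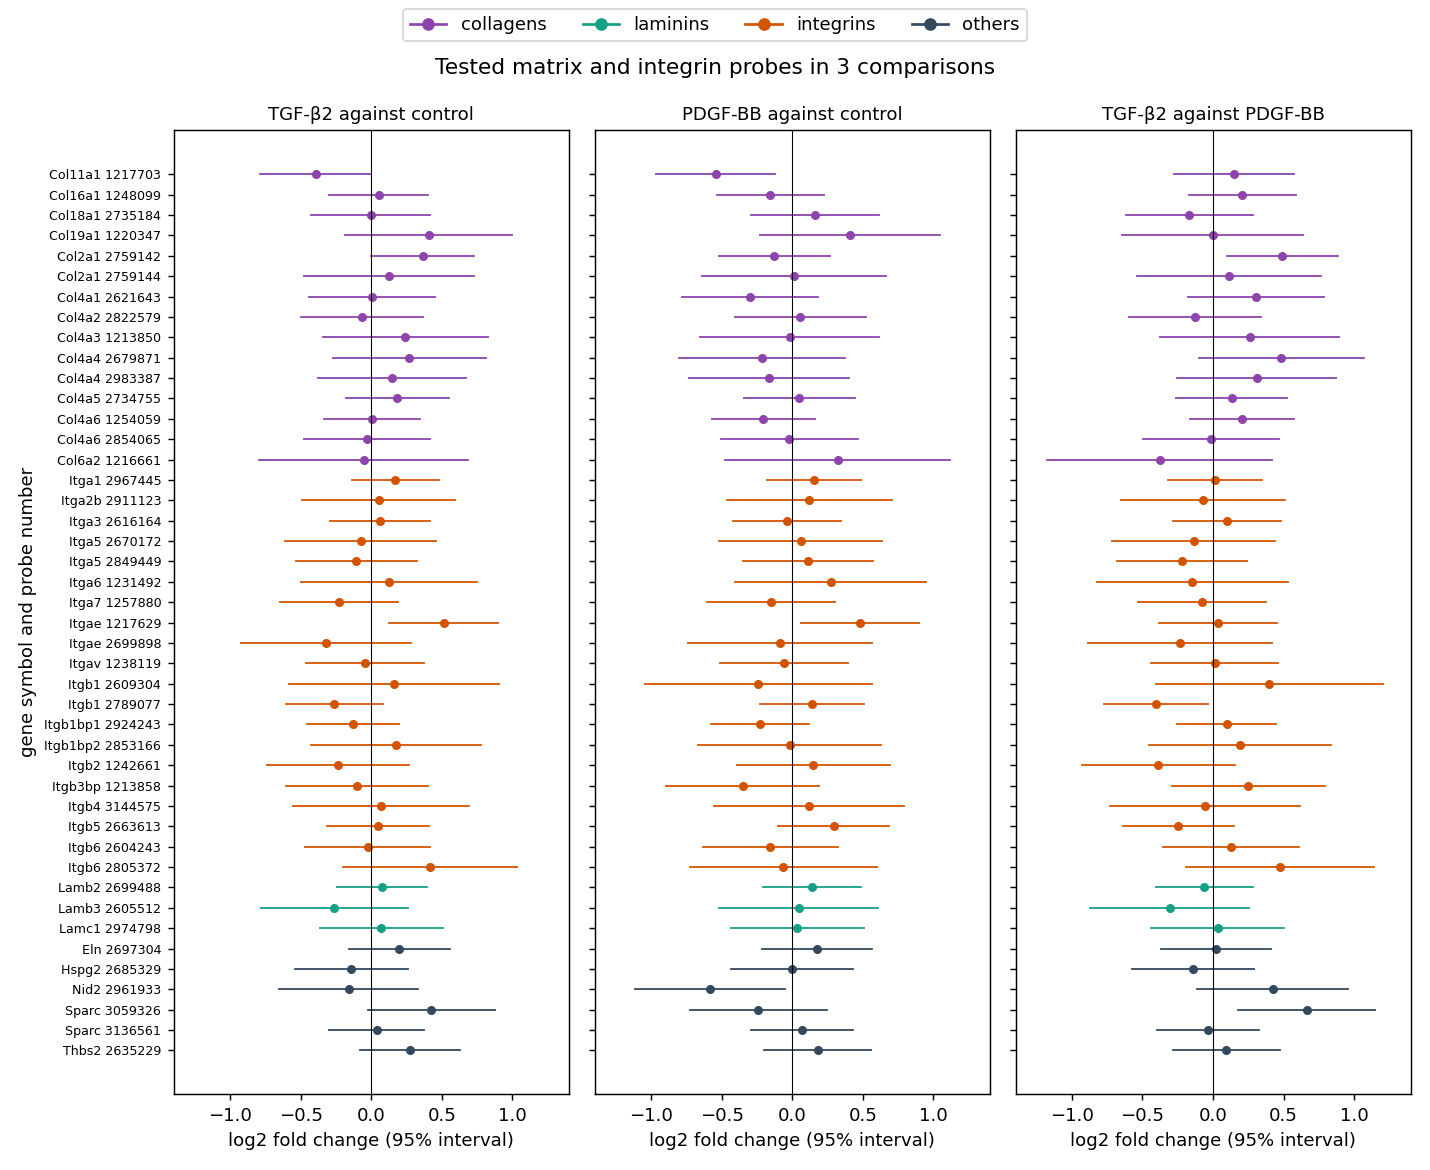
Log2 fold change with its 95% interval for each of the 44 tested probes in the 3 comparisons, coloured by class. No point passed an adjusted p of 0.05, and all lay between -0.58 and 0.66.

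The values of single members follow, on arrays 1 to 4 of control and TGF-β2 and 1 to 3 of PDGF-BB in that order. Levels of different probes were not compared, since probes differ in brightness. Fold changes are log2 differences of group means ± the standard error of the limma fit. Col4a1 read 10.14, 9.83, 10.38 and 10.04 in control, 9.81, 10.34, 10.60 and 9.64 in TGF-β2-treated and 9.86, 9.66 and 9.87 in PDGF-BB-treated cells. Col4a2 read 9.55, 9.64, 9.85 and 10.07 in control, 9.35, 9.82, 10.22 and 9.47 in TGF-β2-treated and 10.10, 9.69 and 9.73 in PDGF-BB-treated cells. The groups of both genes overlapped, and the spread among the TGF-β2 arrays (SD 0.45 and 0.39, n = 4) was larger than any difference between group means. The fold change of Col4a1 was 0.00 ± 0.21 with TGF-β2 and -0.30 ± 0.22 with PDGF-BB. The latter was larger in size than the SD of its control (0.23) and PDGF-BB (0.12) arrays. The fold change of Col4a2 was -0.07 ± 0.20 with TGF-β2 and 0.06 ± 0.22 with PDGF-BB.

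The other type IV chains did not pass the test either. Col4a5 lay between 9.30 and 10.00 on the 11 arrays and Col4a3 between 7.18 and 8.56. One probe for Col4a4 (ILMN_2679871) read 7.46, 7.75, 7.93 and 6.97 in control, 7.67, 8.41, 7.49 and 7.62 in TGF-β2-treated and 7.42, 7.63 and 6.89 in PDGF-BB-treated cells. It had the next to lowest unadjusted p of the collagens between the treated groups, with a log2 difference of 0.49 ± 0.27 (unadjusted p = 0.0979, adjusted p = 0.9999). The second probe for Col4a4 (ILMN_2983387) differed by 0.31 ± 0.26 in the same comparison. The TGF-β2 mean was above the PDGF-BB mean by both probes, and the groups overlapped by both.

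Among laminins and their partners, Lamb2, a beta chain of muscle basement membrane, read 8.86, 8.96, 8.72 and 8.99 in control, 8.75, 9.18, 9.01 and 8.89 in TGF-β2-treated and 9.27, 9.0 and 8.80 in PDGF-BB-treated cells. The largest difference of its group means from control was 0.14 ± 0.16, with PDGF-BB. Lamc1, the gamma chain of most laminins, read 9.12, 9.48, 9.40 and 9.48 in control, 9.13, 9.60, 9.90 and 9.12 in TGF-β2-treated and 9.64, 9.55 and 9.02 in PDGF-BB-treated cells. For both chains the group means differed by less than the SD of the TGF-β2 and of the PDGF-BB arrays. The Lamb2 difference of 0.14 was larger than the SD of its control arrays (0.12). Lamb3, a chain of epithelial laminin, read 7.23, 7.23, 7.32 and 7.83 in control, 7.15, 7.51, 7.24 and 6.66 in TGF-β2-treated and 8.02, 6.97 and 7.35 in PDGF-BB-treated cells. Its values overlapped in all groups, and the fold change was -0.26 ± 0.24 with TGF-β2 and 0.05 ± 0.26 with PDGF-BB.

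Hspg2 read 10.46, 10.56, 10.04 and 10.41 in control, 10.42, 10.30, 10.28 and 9.88 in TGF-β2-treated and 10.68, 10.44 and 9.97 in PDGF-BB-treated cells. Its lowest value was on TGF-β2 array 4 and its highest on PDGF-BB array 1, and the fold change was -0.14 ± 0.19 with TGF-β2 and -0.00 ± 0.20 with PDGF-BB. Nid2, which links laminin to type IV collagen, read 6.56, 6.22, 6.49 and 7.08 in control, 6.54, 6.65, 6.26 and 6.26 in TGF-β2-treated and 5.41, 6.34 and 6.27 in PDGF-BB-treated cells. PDGF-BB array 1 was the lowest of the 11 and below the detection limit, whereas the other 2 PDGF-BB arrays lay among the controls. The fold change with PDGF-BB was -0.58 ± 0.25 (unadjusted p = 0.0346, adjusted p = 0.9998). With chip as a block it was -0.62, on chip 1 alone -0.98, on chip 2 alone -0.48, and without PDGF-BB array 1 it was -0.28 (unadjusted p = 0.228).

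**Figure D3:**
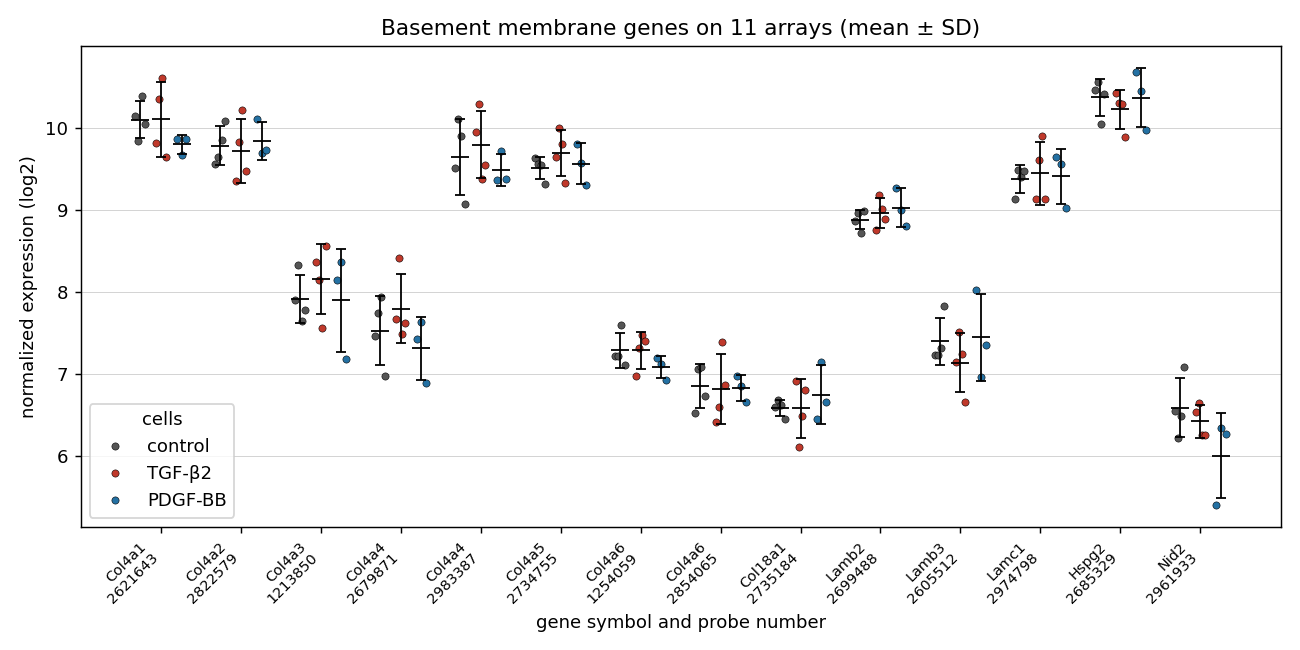
Log2 intensity of basement membrane genes on each array by group, with the group mean and SD (control and TGF-β2, n = 4, and PDGF-BB, n = 3). The groups overlap for each of these genes, and the low Nid2 value of 5.41 is PDGF-BB array 1.

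Sparc, a secreted protein that binds collagen, was measured by 2 probes. By ILMN_3059326 it read 12.43, 11.84, 12.77 and 12.10 in control, 12.59, 13.10, 12.72 and 12.43 in TGF-β2-treated and 12.13, 12.19 and 11.81 in PDGF-BB-treated cells. Every TGF-β2 array was above every PDGF-BB array, with the control arrays lying across both groups. The TGF-β2 mean was 1.59-fold the PDGF-BB mean (log2 difference 0.66 ± 0.22, unadjusted p = 0.0111, adjusted p = 0.772). The difference was 0.66 with chip as a block, 0.72 on chip 1 and 0.57 on chip 2. By ILMN_3136561, however, Sparc read 12.98, 13.18, 13.22 and 12.90 in control, 12.99, 13.39, 13.20 and 12.85 in TGF-β2-treated and 13.35, 12.99 and 13.09 in PDGF-BB-treated cells. The groups overlapped by that probe, and the same difference was -0.04 ± 0.17. The 2 probes thus did not give the same order of groups.

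Thbs2, a secreted protein that limits vessel growth, read 10.68, 10.50, 10.45 and 10.61 in control, 10.91, 10.59, 10.71 and 11.13 in TGF-β2-treated and 10.55, 11.08 and 10.60 in PDGF-BB-treated cells. It was higher with TGF-β2 in each of the 4 pairs of same-numbered control and TGF-β2 arrays, but the groups overlapped and the fold change of 0.27 ± 0.16 did not pass (unadjusted p = 0.117, adjusted p = 0.9999). Elastin (Eln) lay between 8.93 and 9.71 and was also higher in 4 of 4 pairs. Of the 44 tested members, 5 were higher with TGF-β2 in 4 of 4 pairs (Col4a5, Itga1, Itgae by ILMN_1217629, Eln and Thbs2) and 2 were lower (Itga7 and Col11a1, which had entered through the control arrays), where 6.47% and 6.76% of all tested probes were higher and lower in 4 of 4.

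Of the beta subunits of integrins, Itgb1, the partner of most matrix-binding alpha subunits, was measured by 2 probes. By ILMN_2609304 it read 7.77, 6.73, 6.31 and 7.16 in control, 7.49, 6.99, 6.41 and 7.73 in TGF-β2-treated and 6.26, 6.65 and 7.35 in PDGF-BB-treated cells. By ILMN_2789077 it read 7.84, 8.12, 7.81 and 7.74 in control, 7.89, 7.47, 7.31 and 7.78 in TGF-β2-treated and 8.16, 7.86 and 8.03 in PDGF-BB-treated cells. The first probe ranged widely within every group (SD 0.62, 0.58 and 0.55), the second less so (SD 0.17, 0.27 and 0.15). Between the treated groups they gave opposite signs, with a log2 difference of 0.40 ± 0.37 by the first and -0.40 ± 0.17 by the second (unadjusted p = 0.0348, adjusted p = 0.945). By the second probe the difference was -0.43 with chip as a block, -0.48 on chip 1 and -0.40 on chip 2.

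Itgb5, which pairs with Itgav to bind vitronectin, read 9.62, 9.79, 9.44 and 9.97 in control, 9.66, 9.44, 9.98 and 9.91 in TGF-β2-treated and 9.93, 10.23 and 9.84 in PDGF-BB-treated cells. Its PDGF-BB mean was the highest of the 3, by 0.29 ± 0.18 over control (adjusted p = 0.9998), and the groups overlapped. Itgb2, the beta subunit of leukocyte integrins, read 6.20, 6.62, 5.45 and 6.14 in control, 5.89, 6.08, 5.85 and 5.64 in TGF-β2-treated and 6.67, 6.15 and 5.94 in PDGF-BB-treated cells. Its lowest value, on control array 3, and its value on TGF-β2 array 4 were below the detection limit. The TGF-β2 mean of Itgb2 differed from that of PDGF-BB by -0.39 ± 0.25 (adjusted p = 0.9999).

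Of the alpha subunits, Itga3 read 8.28, 8.79, 8.24 and 8.41 in control, 8.66, 8.71, 8.42 and 8.17 in TGF-β2-treated and 8.41, 8.29 and 8.48 in PDGF-BB-treated cells. Itga7, the main laminin-binding subunit of muscle, read 6.95, 7.50, 7.06 and 7.44 in control, 6.89, 7.06, 7.05 and 7.03 in TGF-β2-treated and 7.59, 6.71 and 6.95 in PDGF-BB-treated cells. Itga3 differed from control by 0.06 ± 0.16 with TGF-β2 and -0.04 ± 0.18 with PDGF-BB, and Itga7 by -0.23 ± 0.19 and -0.15 ± 0.21. The lowest Itga7 value was on PDGF-BB array 2 and the highest on PDGF-BB array 1, so that group alone spanned the range of the others.

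Itga5 by ILMN_2849449 read 7.88, 8.13, 8.26 and 8.22 in control, 7.90, 8.09, 8.37 and 7.71 in TGF-β2-treated and 8.65, 7.79 and 8.28 in PDGF-BB-treated cells. By ILMN_2670172 it read 7.02, 6.49, 6.86 and 6.75 in control, 6.67, 6.68, 7.28 and 6.19 in TGF-β2-treated and 7.41, 6.42 and 6.68 in PDGF-BB-treated cells. Both probes gave a TGF-β2 mean just below control and a PDGF-BB mean just above it. These differences lay between -0.11 and 0.11. Itgav read 5.93, 5.54, 5.43 and 6.24 in control, 5.96, 5.36, 5.83 and 5.81 in TGF-β2-treated and 5.59, 5.73 and 5.87 in PDGF-BB-treated cells. Itga6, a laminin-binding subunit, read 5.62, 5.20, 6.03 and 5.29 in control, 5.57, 4.89, 6.45 and 5.74 in TGF-β2-treated and 5.45, 5.93 and 6.04 in PDGF-BB-treated cells. Itgav was detected on 7 and Itga6 on 4 of the 11 arrays, so most of their values lay near background.

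Itgae, which pairs with Itgb7 to bind E-cadherin, had the lowest unadjusted p of the integrins in both comparisons with control. By ILMN_1217629 it read 6.70, 6.27, 6.34 and 6.23 in control, 6.92, 7.29, 6.47 and 6.93 in TGF-β2-treated and 6.90, 7.0 and 6.70 in PDGF-BB-treated cells. Control array 1 lay above TGF-β2 array 3 and just above PDGF-BB array 3 (both 6.70 when rounded), while the other 3 controls were below every treated array. The fold change was 0.51 ± 0.18 with TGF-β2 (unadjusted p = 0.0134) and 0.48 ± 0.19 with PDGF-BB (unadjusted p = 0.0278), with adjusted p-values of 0.9999 and 0.9998. On chips 1 and 2 alone it was 0.61 and 0.41 with TGF-β2 and 0.42 and 0.56 with PDGF-BB, and with chip as a block 0.51 and 0.52. A second tested Itgae probe (ILMN_2699898) gave -0.32 ± 0.28 and -0.09 ± 0.30, below control in both. Its TGF-β2 mean included array 2 at 5.31, below the lowest detected signal of that array (5.89). Of the 4 pairs with control, 2 were higher with TGF-β2 and 2 lower. A further 4 probes for the gene did not reach the 3 detected arrays needed for the test.

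**Figure D4:**
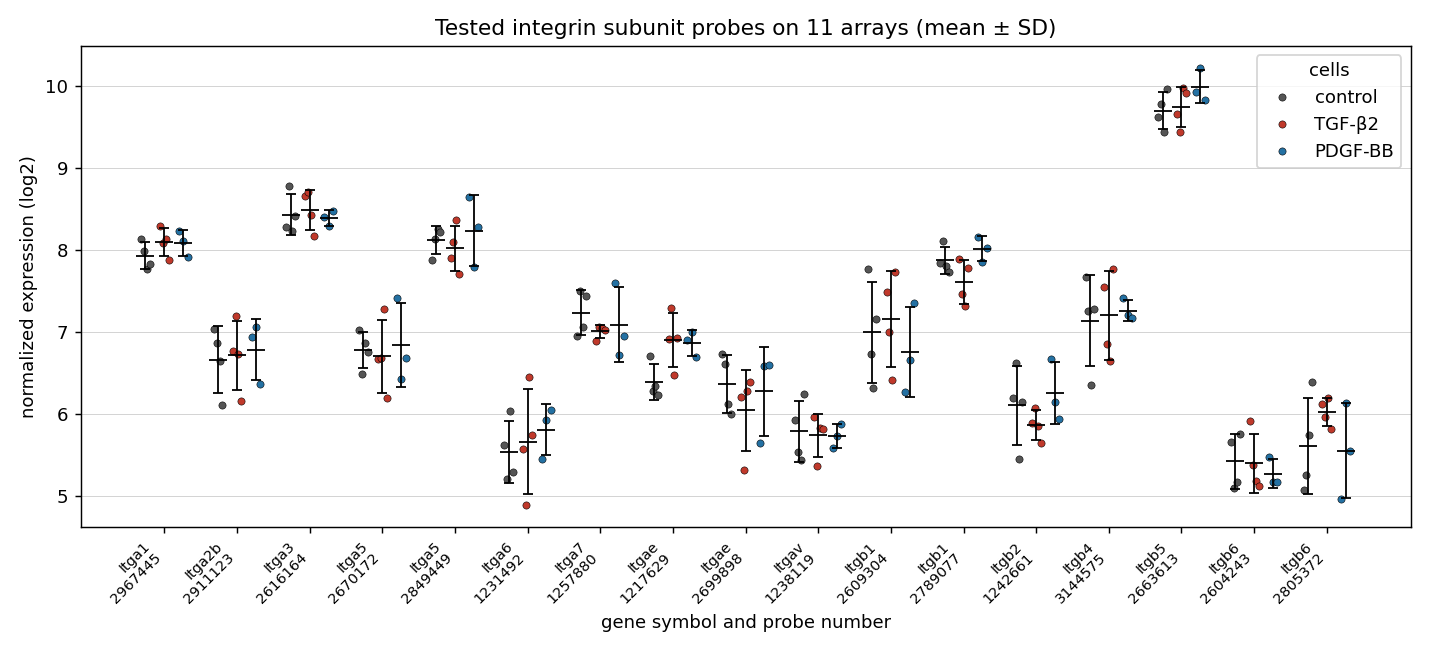
Log2 intensity of integrin subunit genes on each array by group, with the group mean and SD (control and TGF-β2, n = 4, and PDGF-BB, n = 3). The groups overlap for each subunit, and the spread within a group differs between the 2 probes for Itgb1.

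Col11a1, Col2a1 and Col19a1, the other collagens of lowest unadjusted p, lay near the detection limit. Col11a1, a minor chain of cartilage fibrils, read 5.98, 6.19, 5.50 and 6.12 in control, 5.55, 5.88, 5.23 and 5.56 in TGF-β2-treated and 5.25, 5.54 and 5.43 in PDGF-BB-treated cells. It was detected on 3 control arrays and on no treated array, and so was the 1 tested member that had entered the test through a single group. Because neither treated group had signal above background, the fold was also taken with each treated array set at its lowest detected signal. Control was then 1.16-fold over TGF-β2 (fitted means 5.95 and 5.55, adjusted p of the fit 0.9999). It was 1.17-fold over PDGF-BB (fitted mean 5.41, adjusted p of the fit 0.9998). The control mean kept array 3, itself not detected, at its fitted value of 5.50, so these folds are not strict lower limits. The fitted difference was -0.37 on chip 1 and -0.42 on chip 2 with TGF-β2, and -0.83 and -0.33 with PDGF-BB. Control array 3 was not detected and lay below 3 TGF-β2 arrays and 1 PDGF-BB array.

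Col2a1, the main chain of cartilage collagen, read by ILMN_2759142 5.13, 5.28, 5.80 and 5.49 in control, 5.78, 5.98, 5.94 and 5.46 in TGF-β2-treated and 5.21, 5.33 and 5.35 in PDGF-BB-treated cells. It was detected on 1 control array, 3 TGF-β2 arrays and no PDGF-BB array. Each TGF-β2 array was above each PDGF-BB array. With each PDGF-BB array set at its lowest detected signal, the TGF-β2 mean was 1.04-fold the PDGF-BB mean (adjusted p of the fit 0.837). The TGF-β2 mean kept array 4, which was not detected, at its fitted value of 5.46, so this fold is not a strict lower limit. The probe had met the minimum of 3 detected arrays through the TGF-β2 arrays, where it was high, so these values are a description only. The fitted difference of 0.49 was 0.68 on chip 1 and 0.35 on chip 2. Col19a1, a minor collagen of basement membrane zones, read 5.23, 4.95, 4.85 and 6.19 in control, 5.49, 6.15, 5.56 and 5.63 in TGF-β2-treated and 5.80, 5.33 and 6.01 in PDGF-BB-treated cells. It was detected on 1 array of each group. Its PDGF-BB mean differed from control by 0.41 ± 0.30 (adjusted p = 0.9998), and control array 4 was the highest of the 11.

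In all, 8 genes had 2 tested probes each. Their fold changes had the same sign by both probes in 4 of 8 genes with TGF-β2 against control, in 4 of 8 with PDGF-BB against control and in 4 of 8 with TGF-β2 against PDGF-BB. Col4a4 and Itga5 had the same sign by both probes in all 3 comparisons, while Itgae had opposite signs in all 3 and Itgb1 likewise. Between the treated groups, the second probes of Sparc, Col2a1 and Itgb1, whose other probe had an unadjusted p below 0.05, differed by -0.04 ± 0.17, 0.11 ± 0.30 and 0.40 ± 0.37, the last of a size like that of the other Itgb1 probe but of opposite sign. Whether 2 probes for a gene read the same transcripts was not tested.

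**Figure D5:**
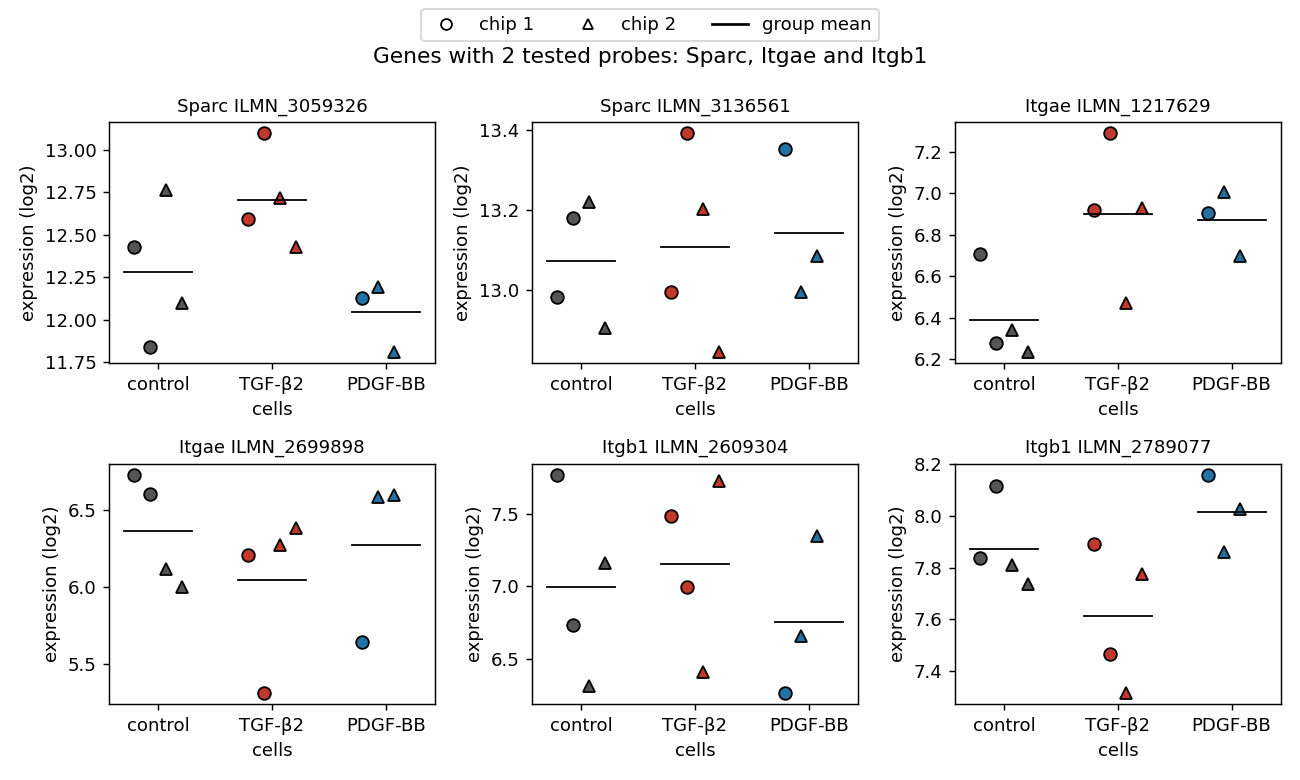
Log2 intensity on each array by group for the 2 tested probes of Sparc, Itgae and Itgb1 (control and TGF-β2, n = 4, and PDGF-BB, n = 3). Lines mark group means, circles chip 1 and triangles chip 2. Sparc by ILMN_3059326 is the 1 panel of the 6 in which the TGF-β2 and PDGF-BB arrays do not overlap.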

How the data were processed

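RNA from HL-1 cells was hybridised to Illumina MouseRef-8 arrays, 1 flask per array. The authors read probe intensities, detection p-values and bead counts with the array software and also deposited intensities normalised by cubic spline. From the deposited intensities, background correction and quantile normalisation (neqc, offset 16) were done with limma 3.58.1 in R 4.3.3. The 12894 probes with a detection p-value below 0.05 on at least 3 of 11 arrays were fitted by group, and p-values were adjusted by Benjamini-Hochberg over all of them.

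Values on every array are given for the 2 members of lowest p per class and comparison and for a list of well-known genes, and other members by range and count. The rule for members uses no measured value, but it and the lists were proposed with earlier results of these data known. Same-numbered control and TGF-β2 arrays deviated together (correlations 0.191, 0.400, 0.504 and 0.371) and were taken as pairs. They also shared a chip, and the correlations took no account of chip. The correlations therefore cannot tell a pair of flasks from a shared chip. With PDGF-BB the correlations of same-numbered arrays ran from -0.442 to 0.328. These cannot decide whether PDGF-BB arrays were paired, since equal numbers need not mark a pair. PDGF-BB array 2 lay on chip 2, but control and TGF-β2 arrays 2 lay on chip 1. The alternatives were other background, scaling and filter settings, chips and replicates as blocks, array weights, each chip alone and each array left out. Others were only the 2 groups compared, and the replicate block on control and TGF-β2 arrays alone. Genes were named from the platform annotation, in which 23978 probes had 1 symbol and 1719 none.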

Additional observations from a re-analysis of the deposited data

Results flagged for a closer look

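In 2 of 88 groups of 4 arrays among the tested members, 1 array lay far from the other 3 by Dixon's test, where chance at 1 in 20 gives 4.4. Lamb3 (ILMN_2605512) read 7.83 on control array 4 against 7.23 to 7.32 on the other control arrays. Itgae (ILMN_2699898) read 5.31 on TGF-β2 array 2, the other 3 arrays of that group lying between 6.21 and 6.38.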

How the results depend on the processing

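No member passed an adjusted p of 0.05 under any alternative to the main limma fit. The lowest adjusted p of a probe given by array was 0.307 (Sparc by ILMN_3059326, TGF-β2 against PDGF-BB, array weights). With the replicate block the number called was 0 in every comparison. Taking same-numbered control and TGF-β2 arrays as pairs thus changed no call between them, and whether they were true pairs was not tested. For PDGF-BB the block followed array numbers, which need not mark pairs, so the effect of pairing on its comparisons was not tested. The median log2 fold change of the members ran from -0.00 to 0.08 for TGF-β2 against control, from -0.06 to 0.10 for PDGF-BB against control and from -0.03 to 0.07 for TGF-β2 against PDGF-BB. Medians of single classes moved further than the spread of the members' median between replicates (SD 0.15) in a few settings. The sign of the laminin median turned in both comparisons with PDGF-BB between chip 1 alone (0.36 against control, -0.30 for TGF-β2 against PDGF-BB) and chip 2 alone (-0.15 and 0.05). On chip 1 these medians rest on PDGF-BB array 1 as the only array of its group. The laminin median for TGF-β2 against control turned from 0.07 to -0.08 without TGF-β2 array 3. The same median in the PDGF-BB comparison with control rose to 0.23 when PDGF-BB array 3 was left out, and the collagen median fell to -0.21 when PDGF-BB array 2 was. The number of members at an unadjusted p below 0.05 ran from 0 to 6, 0 to 5 and 0 to 6. The number of member probes passing the filter in all 3 groups ran from 22 (signal above 100) to 36 (at least 2 arrays of a group), and from 31 to 32 with 1 array left out. Of 1660 alternative values of single probes, 130 had the other sign, none of them called. With 3 or 4 arrays in a group the median standard error was 0.20 to 0.22 log2 units.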
